A study of Oryctolagus cuniculus with 12 samples.

Results

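Mucin and goblet cell genes were followed in rabbit conjunctiva after trabeculectomy. The set was a list of 10 gene names, and its members were the rows of the deposited gene table that carried one of them. Of the 10 names, 8 were found among 20566 rows: the membrane-bound mucins MUC1, MUC4, MUC15 and MUC20, the gel-forming mucin MUC5B, and the goblet cell genes SPDEF, AGR2 and FCGBP. All 8 passed the filter on low counts. No row was named MUC5AC or MUC16, and 7 rows that are described as mucin-5AC, mucin-5B or mucin-16 but carry a LOC name are given separately below.

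Mucins are large glycoproteins whose long serine- and threonine-rich stretches are covered with O-linked sugars. On the ocular surface, membrane-bound mucins build the glycocalyx of the apical epithelial cells. Goblet cells, which lie between the epithelial cells of the conjunctiva, secrete the gel-forming mucins of the tear film. SPDEF is a transcription factor needed for goblet cell differentiation, AGR2 is a protein disulphide isomerase of the endoplasmic reticulum that serves mucin folding, and FCGBP is a secreted mucus protein.

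The study examined filtration surgery in female Japanese white rabbits, and RNA from 12 samples of conjunctiva was sequenced, 3 in each of 4 groups. The right eyes underwent trabeculectomy, in which aqueous humor is drained under a scleral flap into a conjunctival bleb. During the operation mitomycin C, a DNA crosslinker that limits scarring, was applied under the conjunctival and scleral flaps, and betamethasone was injected into the conjunctiva at the end with an ointment of erythromycin and colistin. The conjunctiva with the bleb was taken at 3 hours (TL-3h), 3 days (TL-3d) or 14 days (TL-14d), and conjunctiva of left eyes that were not operated on served as control (cont). Every operated eye had therefore received the incision, mitomycin C, betamethasone and the antibiotics together, and their parts in a difference from cont cannot be told apart. All animals were young and of 1 strain, and the day of collection and the fellow eye of each control sample were not given in the sources used here. The rule behind the numbers 1 to 3 of the samples was not given either.

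The libraries held 27111276 to 38591374 estimated counts, and 14835 genes were tested. Levels are CPM, which are counts scaled by the TMM-adjusted library size, given per library in the order of replicates 1, 2 and 3. TMM factors were 0.768 to 0.783 in the 3 TL-3h libraries and 1.03 to 1.13 in the other 9, so the scaling weighed most at 3 hours. Without it, the median difference at 3 hours over all genes tested moved from 0.02 to -0.47 on the log2 scale. TL-14d replicate 1 resembled the control libraries (mean correlation of log2 CPM 0.962) more than the other TL-14d libraries (0.898). For the members, the rows with a LOC name, and the counts of all genes at 3 and 14 days, calls that change without it are given both ways. For the further gene lists, the markers and the transcripts, no values without it are given. Cont replicate 3 held more of the fibroblast markers (summed level 76260 CPM) than the other control libraries (12160 and 35460 CPM). Its sums of neutrophil, macrophage and endothelial markers were also the highest of cont. Its sum of conjunctival epithelial markers was the lowest (8894 CPM, against 18430 and 15190 CPM). Its mean correlation with the TL-3h libraries was 0.906, against 0.833 and 0.85 for cont replicates 1 and 2.

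Levels between genes were compared on the deposited FPKM values, which are divided by gene length. In cont, MUC1 had a mean of 222 ± 66.0 FPKM (SD, n = 3), MUC4 178 ± 33.4, MUC20 161 ± 70.5, AGR2 133.5 ± 99.9 and FCGBP 117 ± 64.5. The ranges of neighbours in that order overlapped, so the order within these 5 genes was not resolved. MUC15 followed at 25.5 ± 13.3 FPKM and SPDEF at 7.13 ± 1.69 FPKM, and their libraries did not overlap, with MUC15 between 10.3 and 35.2 FPKM and SPDEF between 5.20 and 8.34 FPKM. MUC5B lay at 0.061 ± 0.062 FPKM. At 3 hours, mean AGR2 was 372 ± 236 FPKM, the highest of the means, and mean FCGBP was 18.3 ± 13.1 FPKM. FCGBP stood below MUC20 at 3 hours (57.6 ± 27.99 FPKM), as it did in cont. The AGR2 libraries (115.8 to 580.7 FPKM) overlapped with those of MUC1 and MUC4 at this time. Those of FCGBP (6.848 to 32.54 FPKM) overlapped with those of MUC20 (25.25 to 74.45 FPKM), so this order was not resolved either.

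At 3 hours, 2 of the 8 members fell and none rose at an adjusted p of 0.05 (edgeR quasi-likelihood test, Benjamini-Hochberg adjustment over all genes tested). The members that fell were MUC15 and FCGBP. Over all genes tested, 45.4% passed this threshold, 22.2% as lower and 23.2% as higher. With library size as the only scaling, 3 members fell (MUC20 was added), and 5673 genes passed as lower and 1889 as higher in place of 3298 and 3435. The median log2 fold change was -0.28 over the 8 members and 0.02 over all genes. The members' median lay between SPDEF (-0.12) and MUC5B (-0.43). MUC5B was close to the detection limit, so this median does not show a shift of the set. In 3 members, MUC15, MUC20 and FCGBP, every TL-3h library lay below every control library, as in 28.3% of all genes.

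MUC15 encodes a membrane-bound mucin, and its gene lies on the minus strand of chromosome 1 at 165505055 to 165516994 (OryCun2.0). The control libraries held 80.4, 90.8 and 28.5 CPM and the TL-3h libraries 19.5, 9.996 and 14.4 CPM. The groups did not overlap, although cont replicate 3 was 3.19-fold below the highest control library. The means were 66.6 ± 33.4 and 14.6 ± 4.75 CPM (SD, n = 3), a log2 fold change of -2.19 ± 0.44 (SE, adjusted p = 0.00287), or 4.55-fold lower. Without cont replicate 3, the log2 fold change was -2.61 (adjusted p = 0.000458). The call held in each of 20 alternative analyses, with adjusted p from 3.58e-06 to 0.0132.

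MUC15 then rose between 3 hours and 3 days. The TL-3d libraries held 53.9, 39.1 and 31.95 CPM, all above the TL-3h libraries, with a log2 fold change of 1.51 ± 0.44 (SE, adjusted p = 0.0207). Of the 8 members, 1 (MUC15) passed between these times, where 37.3% of all genes did, 18.4% as higher (with library size as the only scaling, 5073 genes were higher and 1233 lower in place of 2725 and 2812). The call was lost without TL-3h replicate 2 (adjusted p = 0.0714), without TL-3h replicate 3 (0.0574) or without TL-3d replicate 1 (0.0695). The TL-14d libraries held 55.6, 31.0 and 33.7 CPM. At 3 and 14 days the libraries overlapped with cont, and the log2 fold changes were -0.68 ± 0.43 (adjusted p = 0.274) and -0.73 ± 0.43 (0.58). Over the 3 times together, MUC15 passed the test (adjusted p = 0.0139), as did 52.4% of all genes.

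FCGBP, whose protein is bound to secreted mucin, showed the other fall at 3 hours. Its gene was on unplaced sequence, 354085267 to 354121498 of a joined sequence. Levels were 1320, 1650 and 471 CPM in cont and, in the TL-3h libraries, 448, 96.5 and 207 CPM. The groups did not overlap, but the highest TL-3h library lay just below cont replicate 3. The log2 fold change was -2.20 ± 0.63 (SE, adjusted p = 0.0162), or 4.58-fold lower. The call was lost without cont replicate 2 (adjusted p = 0.0575) or TL-3h replicate 3 (0.0543), and without cont replicate 3 the log2 fold change was -2.63 (0.00652).

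FCGBP held 1154, 845 and 424 CPM at 3 days and 1088, 1825 and 1749 CPM at 14 days. The 14-day libraries overlapped with the control range and 2 of them lay above all control libraries. The log2 fold changes against cont were -0.51 ± 0.60 at 3 days (adjusted p = 0.573) and 0.44 ± 0.60 at 14 days (0.829). From 3 hours to 3 days the difference was 1.69 ± 0.62 (adjusted p = 0.0535), and it passed with DESeq2's Wald test (0.0112) and with library size as the only scaling (0.0202). Over the 3 times together FCGBP passed the test (adjusted p = 0.0296).

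In bulk tissue, fewer cells of a type and less RNA per cell cannot be told apart. The summed level of 14 conjunctival epithelial markers, among them KRT4, KRT13, KRT19 and CDH1, was 8894 to 18430 CPM in cont and 8302 to 14600 CPM at 3 hours. Against this sum, MUC15 was 0.320 to 0.598% in cont and 0.108 to 0.133% at 3 hours. FCGBP was 5.30 to 10.9% of the same sum in cont and 1.16 to 3.07% at 3 hours. Both ratios were thus lower in every TL-3h library than in every control library, as were those of 16.5% of all genes tested. Of the 14 markers, 2 passed as higher and 3 as lower at 3 hours (2 and 6 with library size as the only scaling), with a median log2 fold change of -0.51.

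**Figure D1:**
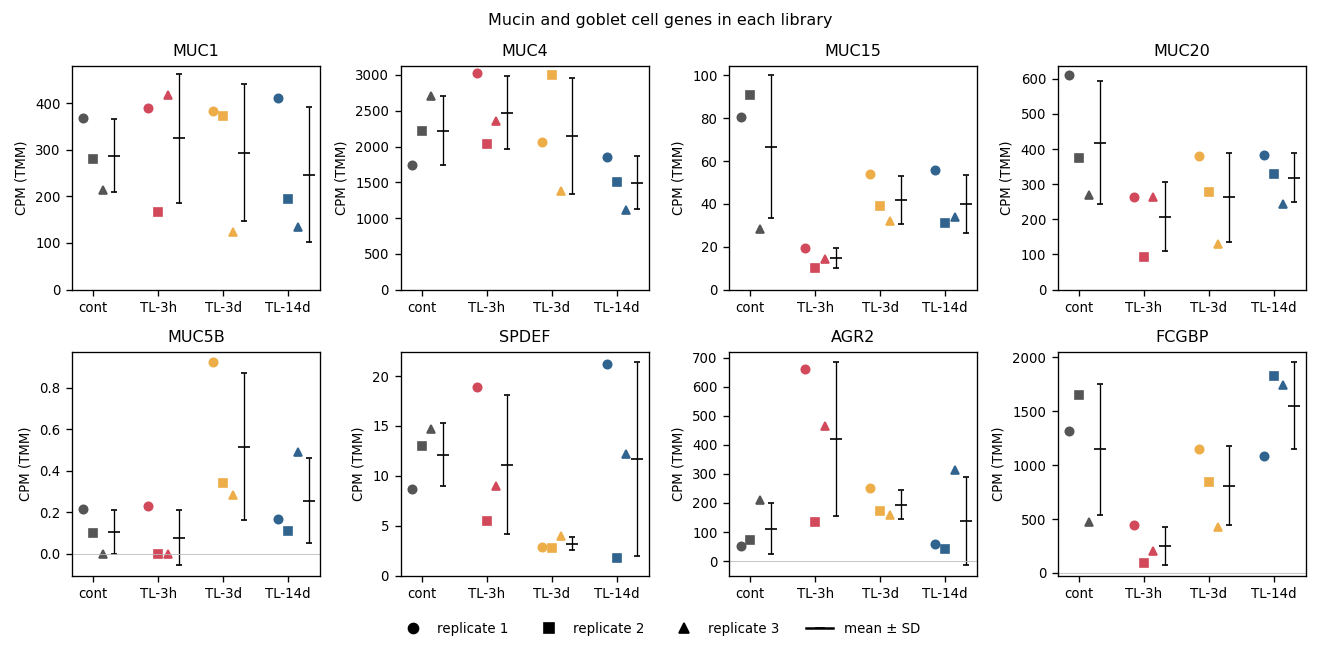
Level of each of the 8 mucin and goblet cell genes in every library, in CPM with TMM-adjusted library sizes on a linear axis of its own per gene. Symbols mark replicates 1 to 3 of cont, TL-3h, TL-3d and TL-14d, and the bar beside them is the mean ± SD (n = 3). All 3 TL-3h libraries lie below all control libraries for MUC15, MUC20 and FCGBP, and all 3 TL-3d libraries below all control libraries for SPDEF.

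MUC1 and MUC4, membrane-bound mucins of the glycocalyx, had the highest control means in FPKM among the listed genes, although their ranges overlapped with those of MUC20, AGR2 and FCGBP. MUC1 (chromosome 13, plus strand, 37503577 to 37507876) held 368, 280 and 213 CPM in cont and 388, 166 and 418 CPM at 3 hours. It held 383, 373 and 124 CPM at 3 days and 411, 194 and 135 CPM at 14 days. The 4 groups overlapped. The log2 fold changes against cont were 0.18 ± 0.53 (adjusted p = 0.815), 0.03 ± 0.53 (0.971) and -0.22 ± 0.53 (0.905) in the order of the times. At the 3-hour time the sign of this small value changed with library size as the only scaling (-0.33), as it did for MUC4 (-0.33).

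MUC4 (chromosome 14, plus strand, 92769946 to 92817671) is a long mucin that also carries growth factor-like domains. It took 0.209% of all counts, the largest share among the 8 members. In cont it held 1738, 2212 and 2706 CPM and at 3 hours 3032, 2029 and 2363 CPM. The TL-3d libraries held 2059, 3002 and 1384 CPM and the TL-14d libraries 1858, 1503 and 1116 CPM. The groups overlapped at each time, and the log2 fold changes of 0.16 ± 0.31, -0.05 ± 0.31 and -0.57 ± 0.32 had adjusted p of 0.718, 0.931 and 0.564.

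MUC20 lies next to MUC4, on the minus strand of chromosome 14 at 92836913 to 92848727, 19241 bases beyond its end. The control libraries held 611, 374 and 270 CPM and the TL-3h libraries 265, 93.9 and 264 CPM. Every TL-3h library was lower than every control library, by a small margin for replicates 1 and 3. The log2 fold change of -1.01 ± 0.49 did not pass (adjusted p = 0.116), except with library size as the only scaling (-1.52, adjusted p = 0.0292). At 3 and 14 days, MUC20 held 382, 277 and 130 CPM and 382, 328 and 244 CPM, with adjusted p of 0.339 and 0.801.

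Against the sum of the epithelial markers, MUC20 was 2.47 to 3.32% in cont, 1.13 to 1.98% at 3 hours, 1.23 to 1.57% at 3 days and 1.56 to 1.93% at 14 days. On this ratio, all operated libraries lay below all control libraries at each time. MUC15 did the same, with 0.177 to 0.304% at 3 days and 0.157 to 0.281% at 14 days against 0.320 to 0.598% in cont. At 3 days the ratio was also below cont in every library for FCGBP (3.82 to 4.74% against 5.30 to 10.9%) and MUC1 (1.18 to 1.69% against 1.84 to 2.39%). So was that of SPDEF, which is given below.

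At 14 days the MUC4 ratio was below cont as well, at 7.13 to 9.39% against 9.43 to 30.4%, while that of MUC1 overlapped with cont (0.864 to 2.08%). Of all genes tested, 11.7% had such a lower ratio in every library at 3 days and 15.4% at 14 days. The sum that divides these ratios was itself 10510 to 24360 CPM at 3 days and 15660 to 19790 CPM at 14 days. Its member KRT5, a basal keratin, was at 1260 to 2690 CPM in cont, 3590 to 9070 CPM at 3 days and 2810 to 8580 CPM at 14 days. KRT15, also in the sum, went the other way at 3 days (159 to 437 CPM, against 1450 to 2740 CPM in cont). It was at 386 to 3800 CPM at 14 days. Of the 14 markers, 1 passed as higher and 1 as lower at 3 days, and 0 passed at 14 days. No test was made on these ratios.

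**Figure D2:**
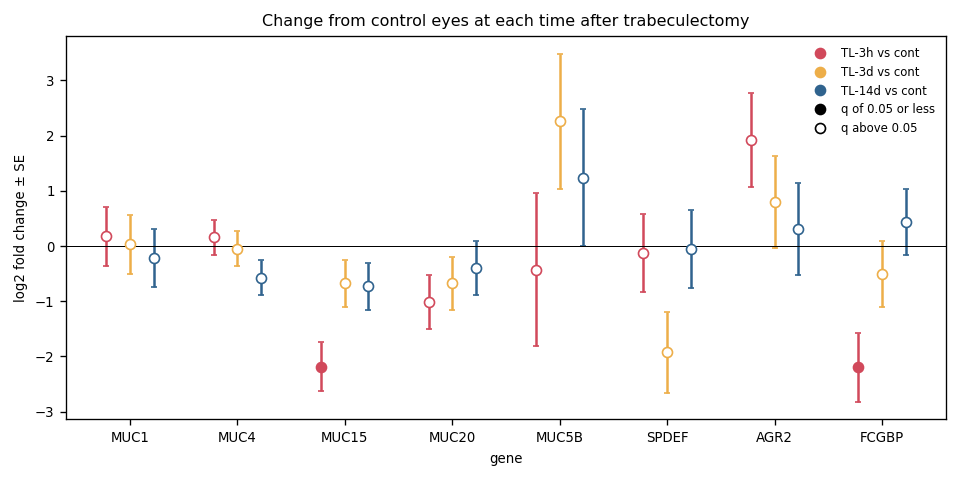
Log2 fold change against cont (vertical axis, ± SE of the edgeR fit) of the 8 genes at each time after trabeculectomy. Filled points have an adjusted p of 0.05 or less, which holds for MUC15 and FCGBP at 3 hours, and open points do not.

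AGR2 had the largest positive log2 fold change of the members at 3 hours, but it did not pass. Its gene was on unplaced sequence, 85774530 to 85789039. Levels in cont were 50.8, 71.4 and 212 CPM and in TL-3h 659, 134.5 and 466 CPM. The groups overlapped because cont replicate 3 lay above TL-3h replicate 2. The log2 fold change was 1.92 ± 0.85 (adjusted p = 0.0931), and it passed with DESeq2's Wald test (0.0395), without cont replicate 3 (2.72, adjusted p = 0.0426) and without TL-14d replicate 3 (0.0381).

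At 3 days AGR2 held 251, 171.5 and 158 CPM and at 14 days 57.7, 42.1 and 314 CPM. The spread at 14 days was 7.45-fold between the highest and the lowest library. The log2 fold changes were 0.80 ± 0.83 (adjusted p = 0.516) and 0.31 ± 0.83 (0.918).

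SPDEF (chromosome 12, minus strand, 24668537 to 24685814) had the lowest log2 fold change of the members at 3 days. It was at 8.66, 13.0 and 14.7 CPM in cont and at 2.85, 2.77 and 3.95 CPM in TL-3d. The groups did not overlap, which was the case in the same direction for 21.7% of all genes. The log2 fold change of -1.93 ± 0.73, or 3.80-fold lower, did not pass (adjusted p = 0.0893). It passed with DESeq2's Wald test (0.0254), in a fit of the 6 libraries compared (0.0124) and without TL-14d replicate 2 (0.0216), and adjusted p ranged from 0.0124 to 0.218 over all alternatives.

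SPDEF held 18.9, 5.43 and 8.997 CPM at 3 hours and 21.2, 1.77 and 12.1 CPM at 14 days. The TL-14d libraries differed 12.03-fold, and replicate 2 was below every TL-3d library. At both times the groups overlapped with cont, with log2 fold changes of -0.12 ± 0.70 (adjusted p = 0.902) and -0.05 ± 0.70 (0.987). Against the sum of the epithelial markers, SPDEF was 0.0470 to 0.166% in cont and 0.0117 to 0.0376% at 3 days, with no overlap. Such a lower ratio at 3 days was found for 11.7% of all genes tested, and no test was made on it.

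MUC5B, a gel-forming mucin best known from airways and salivary glands, was close to the detection limit. Its row is a short gene model on unplaced sequence (400637918 to 400641980, transcript length 1730 bases). The control libraries held 9, 4 and 0 counts, the TL-3h libraries 6, 0 and 0, the TL-3d libraries 37, 11 and 10, and the TL-14d libraries 5, 4 and 15. A count of 0 allows up to 3 counts, 0.0712 to 0.124 CPM in these libraries, by counting error alone. MUC5B reached the level of the count filter in all 3 TL-3d libraries and in 1 other, so it was tested only because of the group in which it was highest. A higher level at 3 days was thereby built in, and the TL-3d libraries lay above all control libraries, as in 23.8% of all genes. The log2 fold change of 2.26 ± 1.22 did not pass (adjusted p = 0.206).

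Across the later comparisons, the members gave few calls. At 3 days, edgeR called 0 of 8 members, with 1 (SPDEF) at an unadjusted p under 0.05, and DESeq2 called 1. Of all genes, 17.6% passed at this time and 36.2% had an unadjusted p under 0.05. At 14 days, 0 of 8 members passed with either tool and none had an unadjusted p under 0.05. Of all genes, 0 (0%) passed in edgeR at 14 days (716 without TL-14d replicate 1), 1538 (10.4%) had an unadjusted p under 0.05, and DESeq2 called 367. Between 3 and 14 days 0 of 8 members passed with edgeR or DESeq2, with 1 (SPDEF) at an unadjusted p under 0.05, while 2.24% of all genes passed (332 genes, and 67 without TL-14d replicate 1) and 22.6% had such a p. The comparisons with cont share the same 3 control libraries, so they are not independent of each other.

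The 7 rows described as mucin-5AC, mucin-5B or mucin-16 lie outside the rule for members, and they were picked by their descriptions after values of these data had been seen. Since mucin-5AC is the main gel-forming mucin of conjunctival goblet cells and mucin-16 a large membrane-bound mucin of the ocular surface, their values are given. LOC103347164, described as mucin-5AC (unplaced, minus strand, 465014727 to 465022179), held 367, 513 and 1466 CPM in cont. It held 1373, 254 and 1080 CPM at 3 hours, 958, 770.5 and 1379 CPM at 3 days, and 648, 170.2 and 1606 CPM at 14 days. The spread within cont, TL-3h and TL-14d was 3.997-fold, 5.41-fold and 9.44-fold, and all groups overlapped. The log2 fold changes of 0.21 ± 0.82, 0.41 ± 0.82 and 0.05 ± 0.82 had adjusted p of 0.861, 0.752 and 0.989. Its control mean of 210 ± 152 FPKM lay within the range of MUC1, MUC4 and MUC20.

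LOC100356613, described as mucin-5AC-like, has a gene ID that a RefSeq table of another rabbit assembly lists under MUC5AC. It held 59.6, 62.8 and 241.5 CPM in cont, 233, 48.4 and 147 CPM at 3 hours, 217, 128 and 236.5 CPM at 3 days, and 28.4, 31.1 and 394 CPM at 14 days. No comparison with cont passed (adjusted p 0.869, 0.662 and 0.93). Across the 12 libraries, both mucin-5AC rows ran together (Pearson r of log2 CPM 0.872), and both ran with AGR2 (0.759 and 0.818). They did not run with FCGBP (-0.08 and -0.10). These are descriptions over libraries that share groups and tissue composition.

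The 3 rows described as mucin-16 or mucin-16-like lie one after the other on the plus strand of unplaced sequence. LOC103345061 (312717808 to 312742065) ends 87 bases before LOC103344954 (312742153 to 312744146), which ends 6487 bases before LOC100352724 (312750634 to 312814895). Their log2 CPM correlated at 0.964 to 0.989 over the 12 libraries, so they are not 3 independent measurements. LOC100352724 held 487, 159 and 310 CPM in cont, 132, 37.9 and 111 CPM at 3 hours, 35.5, 77.7 and 14.7 CPM at 3 days, and 482, 13.7 and 26.7 CPM at 14 days. All 3 rows were lower in every TL-3d library than in every control library, as were 21.7% of all genes.

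For LOC100352724 the log2 fold change at 3 days was -2.90 ± 1.23 (SE, adjusted p = 0.118), and those of LOC103345061 and LOC103344954 were -2.75 ± 1.05 (0.0905) and -2.70 ± 1.12 (0.114). None passed, but each did without TL-14d replicate 1, whose spread enters the shared fit (adjusted p 0.0193, 0.0163 and 0.0253 in the same order). Each also passed with DESeq2's Wald test (0.0241, 0.0157 and 0.0294) and in a fit of only the libraries compared (0.0398, 0.0348 and 0.0400). At 14 days, TL-14d replicate 1 was at the level of the control libraries and the other TL-14d libraries were below all of them. With all libraries the 14-day log2 fold change of LOC100352724 was -0.87 ± 1.15 (adjusted p = 0.82), and without TL-14d replicate 1 it was -3.99 (0.0428). In the same way LOC103345061 went from -1.24 ± 0.996 (0.69) to -3.62 (0.0404) and LOC103344954 from -1.22 ± 1.07 (0.715) to -3.82 (0.0483).

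At 3 hours, the log2 fold change of LOC100352724 was -1.77 ± 1.17 (adjusted p = 0.251, or 0.0473 in the fit of only the libraries compared). From 3 hours to 3 days, that of LOC103345061 was -1.81 ± 1.02 (adjusted p = 0.1855), and it passed without TL-14d replicate 1 (0.0450). The remaining rows, LOC103347163 (mucin-5B-like) and LOC103351472 (described as mucin-5AC, but listed as SPEM3 by its gene ID), held at most 6 and 12 counts in a library and were not tested.

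**Figure D3:**
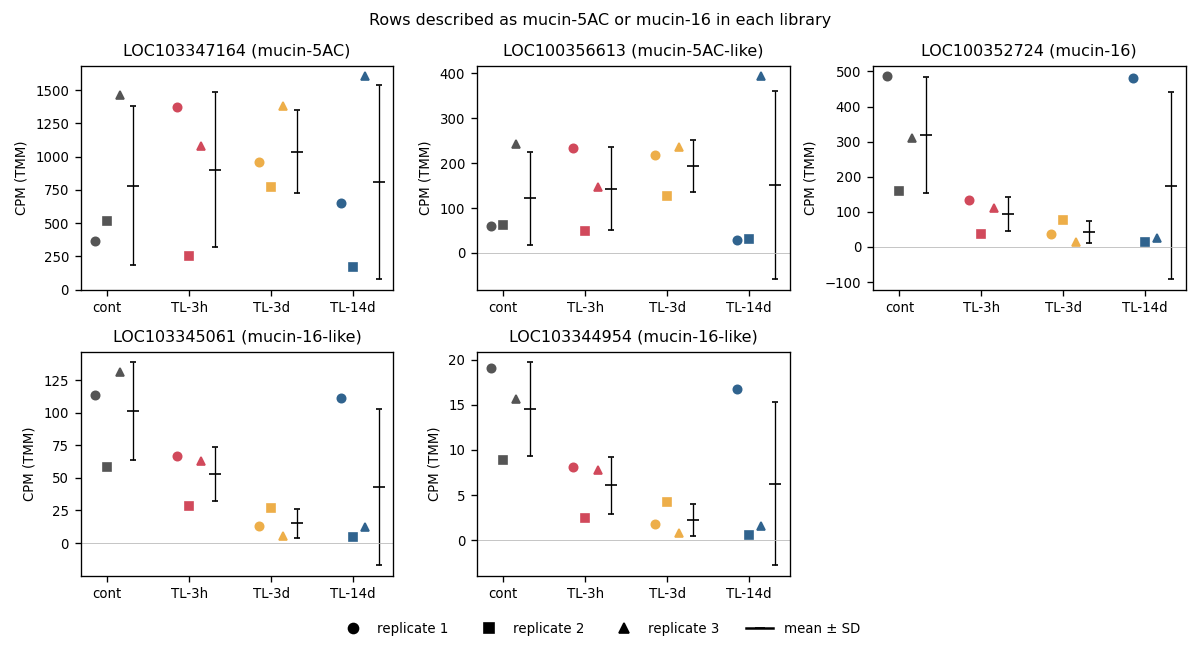
Level in every library, in CPM with TMM-adjusted library sizes on a linear axis per panel, of 5 rows that are described as mucin-5AC or mucin-16 but carry no such gene name. Symbols mark replicates 1 to 3 and bars the mean ± SD (n = 3); for the mucin-16 rows, TL-14d replicate 1 sits with the control libraries while the other TL-14d libraries and all TL-3d libraries lie below them.

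The transcript table resolved several annotated transcripts for MUC4, MUC15 and MUC20, as estimates that depend on how reads were shared between overlapping models. Of 15 member transcripts tested, 1 was higher and 2 were lower at 3 hours, against 28.3% of all transcripts tested. The lower ones were the main MUC15 transcript (XM_008268996.2, 94.4 to 99.1% of the gene's transcript counts in each library; log2 fold change -2.25 ± 0.44, adjusted p = 0.00384) and the FCGBP transcript (-2.25 ± 0.63, 0.0224). The higher one was XM_017347029.1 of MUC4, at 4.27 ± 1.43 (adjusted p = 0.0479). It made up 0.298, 1.88 and 2.40% of MUC4 counts in TL-3h replicates 1, 2 and 3 and at most 0.168% in any other library. From 3 hours to 3 days, the main MUC15 transcript was the only member transcript that passed (1.60 ± 0.43, adjusted p = 0.0233), against 21.4% of all transcripts.

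MUC20 counts were split between annotated transcripts in different ways in different libraries. XM_017347034.1 held 70.1 to 81.2% of the MUC20 transcript counts in 5 of 12 libraries, and 0.155 to 1.06% in the other 7. In those 7, XM_008266729.2 held 83.1 to 94.3%. No library lay between these ranges. The 5 libraries were cont replicate 3, TL-3h replicates 2 and 3, TL-3d replicate 2 and TL-14d replicate 1, so the split ran across the groups and was present without surgery.

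A second pattern ran with it in the neighbouring gene. XM_017347032.1, the shortest annotated MUC4 transcript, held 13.6, 15.2 and 31.9% of the MUC4 transcript counts in cont and 32.6, 48.1 and 52.9% at 3 hours. It held 22.3, 36.1 and 19.8% at 3 days and 31.3, 18.9 and 18.1% at 14 days. In 4 of 4 groups, its highest shares were in the libraries in which XM_017347034.1 led MUC20. Its log2 fold change at 3 hours was 1.12 ± 0.60 (adjusted p = 0.199). Within cont (0.145%), TL-3h (1.88 and 2.40%) and TL-3d (0.168%), XM_017347029.1 of MUC4 was also highest in the libraries led by XM_017347034.1. Within TL-14d it was lowest there. The part of the split in the 3-hour call of XM_017347029.1 was not tested, and neither was the cause of these patterns.

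**Figure D4:**
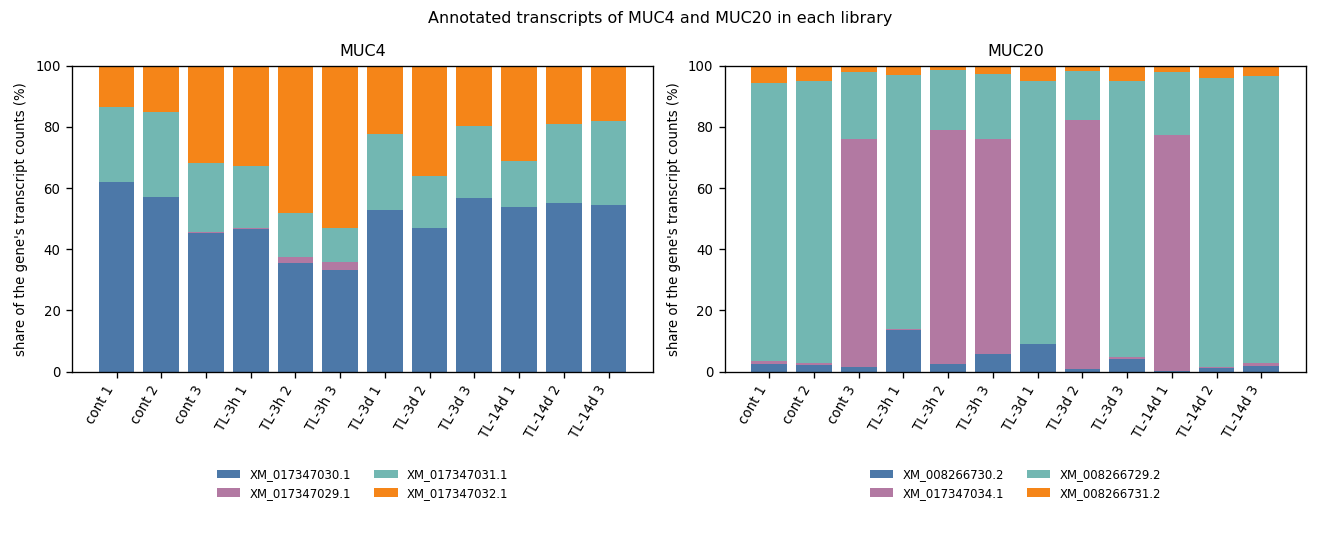
Share of each gene's estimated transcript counts (vertical axis, %) taken by each annotated transcript of MUC4 (left) and MUC20 (right) in the 12 libraries. For MUC20, XM_017347034.1 fills 70.1 to 81.2% of the bar in 5 libraries and at most 1.06% in the others, and in each group the same libraries show the highest share of XM_017347032.1 for MUC4.

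The members did not move as 1 block across libraries. Over the 12 libraries, Pearson's r of log2 CPM was 0.835 between MUC15 and FCGBP, 0.752 between MUC15 and MUC20, and 0.736 between FCGBP and MUC20. MUC1 correlated with MUC4 (0.642) and with MUC20 (0.646). AGR2 ran the other way to MUC15 (-0.54) and FCGBP (-0.44), and SPDEF was at -0.06 with FCGBP and 0.23 with AGR2. SPDEF had its highest values here with the mucin-16 rows (0.708 to 0.761). These values mix differences between groups with those within groups.

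For each member, the 3 genes most like it by the same measure were taken from the genes whose mean level reached 1 CPM or more. For AGR2 they were LOC100358238 (r = 0.927), which is trefoil factor 1 (TFF1), a small secreted peptide of mucus cells, LOC103347176 (0.891), which has no description, and SGCB (0.875), a sarcoglycan. For SPDEF they were CREB3L4 (0.965), a transcription factor bound to the endoplasmic reticulum, LOC100359087 (0.945), described as a cytochrome P450, and ZNF511 (0.931). For FCGBP they were ENTPD3 (0.974), TBC1D30 (0.964) and SLC22A23 (0.959), and for MUC15 they were LOC100346985 (guanylate-binding protein 4, 0.978), C4H12orf56 (0.963) and PDZK1IP1 (0.961). MUC20 ran most closely with SPINT1 and FAM84B (both 0.959) and LOC103348513 (0.958), and MUC1 with C12H6orf132 (0.96), GDF3 (0.921) and AIM1L (0.902). The genes nearest to MUC4 were MBOAT1 (0.904), WASF2 (0.865) and ANKRD13A (0.851). Those nearest to MUC5B, whose counts were low, were SHROOM4 (0.927), FUT1 (0.926) and GCHFR (0.919).

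Of 14 further mucin-type genes listed, 10 were found and 9 were tested, of which 4 rose at 3 hours (3 with library size as the only scaling) and 1 at 3 days. Of all genes, 23.2% rose at 3 hours and 10.6% at 3 days. Control means of the tested genes ran from 0.0158 CPM for MUC17 to 106 CPM for MUC21, a membrane-bound mucin of squamous epithelia, and 324 CPM for CD164, a sialomucin found on many cells. At 3 hours the means were 301 CPM for MUC21 and 576 CPM for CD164. Those of LOC100350231 (MUC12 by its gene ID), MUC19, EMCN and MUC17 were below cont at this time. OVGP1, an oviduct mucin-type glycoprotein, held 0, 3 and 1 counts in cont and 29, 29 and 8 at 3 hours (adjusted p = 0.0232). LOC103349725, which is MUC22 by its gene ID, had 0.131 ± 0.033 CPM in cont and 1.83 ± 1.38 CPM at 3 hours, a log2 fold change of 3.77 ± 1.12 (adjusted p = 0.0192). None of its control libraries reached the level of the count filter. MUC17, a membrane-bound mucin known from the intestine, held 2, 0 and 0 counts in cont, 0, 1 and 0 at 3 hours, 98, 77 and 27 at 3 days, and 2, 16 and 5 at 14 days. Its adjusted p at 3 days was 0.0114, but it reached the level of the count filter in the TL-3d libraries and 1 other, and so was tested only because of the group in which it was highest. No fold is given for OVGP1 and MUC17, because their control libraries were at or under 3 counts.

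Of 28 tested genes of goblet cells and secretion, 4 rose and 3 fell at 3 hours (2 and 7 with library size as the only scaling), and 2 fell at 3 days. Both counts were smaller shares than the 45.4% and 17.6% of all genes that passed at these times. XBP1, a transcription factor of the unfolded protein response, was at 134 ± 10.8 CPM in cont and 849.5 ± 535 CPM at 3 hours (log2 fold change 2.66 ± 0.46, adjusted p = 0.00124). SYTL2, which takes part in vesicle docking, rose by 1.48 ± 0.54 on the log2 scale (0.0473), but did not pass with DESeq2 size factors (0.0528) or library size only (0.152). VIPR1, a receptor for vasoactive intestinal peptide, fell from 94.8 ± 53.6 to 14.8 ± 9.46 CPM at 3 hours (-2.68 ± 0.72, 0.0123) and was at 17.9 ± 3.06 CPM at 3 days (-2.41 ± 0.71, 0.0444). RAB3D, a small GTPase of secretory granules, fell at 3 hours (-0.996 ± 0.22, 0.0045), and BCAS1 fell at 3 days (-1.53 ± 0.43, 0.0374). The median log2 fold change of the list was -0.22 at 3 hours and -0.11 at 3 days.

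Of 29 tested enzymes of mucin O-glycosylation, 4 rose and 2 fell at 3 hours (2 and 7 with library size as the only scaling), and 1 rose and 1 fell at 3 days, again smaller shares than over all genes (45.4% and 17.6%). GCNT3, which branches mucin-type sugars, went from 0.424 ± 0.328 to 23.2 ± 3.05 CPM at 3 hours (log2 fold change 5.77 ± 1.53, adjusted p = 0.0112). C1GALT1, which makes the core 1 sugar, rose by 2.36 ± 0.54 (0.00565). GALNT10 and GALNT18, of the family that starts the chain, fell by 0.99 ± 0.22 (0.00412) and 0.97 ± 0.29 (0.0183) on the log2 scale. At 3 days GALNT6 was higher (2.62 ± 0.71, 0.0336) and C1GALT1C1, the chaperone of C1GALT1, was lower (-0.89 ± 0.24, 0.0342). The list's median log2 fold change was 0.04 at 3 hours, next to 0.02 for all genes.

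Among 12 tested genes of Notch signalling and of IL4 and IL13 signalling, which act on goblet cell fate, 3 rose and 3 fell at 3 hours (1 and 4 with library size as the only scaling), and 1 rose and 1 fell at 3 days, next to 45.4% and 17.6% of all genes. NOTCH3 fell (log2 fold change -2.17 ± 0.35, adjusted p = 0.000749) and NOTCH2 rose (0.68 ± 0.13, 0.00241) at 3 hours, the latter not with library size as the only scaling (0.17, 0.352). The Notch target HEY1 fell at 3 hours (-1.30 ± 0.33, 0.00879) and 3 days (-1.78 ± 0.33, 0.0132). IL4R rose at 3 hours (2.74 ± 0.42, 0.000589) and 3 days (2.11 ± 0.41, 0.0142). A list of 8 genes took in partners of the glycocalyx and its shedding, and also the transcription factor PAX6. Of these 8 genes, 2 rose and 1 (PAX6) fell at 3 hours (1 and 3 with library size as the only scaling) and 2 rose at 3 days, beside the same shares of all genes. The actin linker MSN rose at 3 hours (2.11 ± 0.30, 0.000437) and 3 days (1.30 ± 0.30, 0.0207), and the sheddase ADAM17 rose at both times (0.64 ± 0.19, 0.0192, and 0.91 ± 0.19, 0.0169), at 3 hours not with library size as the only scaling (0.14, 0.604). PAX6, the eye field transcription factor, fell at 3 hours (-1.70 ± 0.41, 0.00693). At 14 days, 0 genes of these 5 lists passed in edgeR or DESeq2, with 0 to 6 per list at an unadjusted p under 0.05. The lists are not given without TL-14d replicate 1, where 716 of all genes passed in edgeR.

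Markers of some other cells differed between the groups. Beside the counts of called markers below, 23.2% of all genes rose and 22.2% fell at 3 hours, and 10.6% rose at 3 days. At 3 hours, 5 of 5 tested neutrophil markers rose, from a summed 3.27 to 78.6 CPM in cont to 993 to 2662 CPM, with MMP8 at 0 counts in all libraries of both groups. The neutrophil sum was 119 to 722 CPM at 3 days and 3.03 to 99.98 CPM at 14 days. The fibroblast sum was 12160 to 76260 CPM in cont, 105000 to 125500 CPM at 3 hours, 1328 to 64670 CPM at 3 days and 11010 to 57020 CPM at 14 days, and 0 of 6 markers passed against cont at any time in edgeR or DESeq2, with 0 at an unadjusted p under 0.05. Monocyte and macrophage markers summed to 71.7 to 603 CPM in cont, 637 to 974.5 CPM at 3 hours (2 of 6 rose) and 1253 to 2003 CPM at 3 days (3 of 6 rose). Endothelial markers summed to 63.7 to 275 CPM in cont and 605 to 1211 CPM at 3 hours (2 of 5 rose).

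The sum of 8 goblet cell markers, which include 4 of the members, was 1342 to 2245 CPM in cont and 583.5 to 2257 CPM at 3 hours, which overlapped. MUC5AC entered this sum as LOC100356613 only, and the other mucin-5AC row LOC103347164 (367 to 1466 CPM in cont) was left out. Within the sum, FCGBP was at 471 to 1650 CPM in cont and 96.5 to 448 CPM at 3 hours, and AGR2 at 50.8 to 212 and 135 to 659 CPM. Their changes had opposite signs, so the overlap does not show that goblet cells were unchanged. Of the 8 markers, 0 passed as higher and 1 as lower at 3 hours. The lower one was FCGBP, the same call as given above for this member. Of the lacrimal and serous gland markers, 1 rose and 2 fell of 3 tested at 3 hours, and their sum went from 3628 to 6344 CPM in cont to 1164 to 2722 CPM, with the defining marker LPO at 0 in both groups. The corneal markers KRT3 and KRT12 summed to 54.1 to 84.8 CPM in cont, 21.8 to 44.5 CPM at 3 hours, 294 to 321 CPM at 3 days (1 of 2 rose) and 84.6 to 795 CPM at 14 days. T cell markers summed to 14.2 to 35.8 CPM in cont and 10.5 to 19.1 CPM at 3 hours (1 of 6 fell), and skeletal muscle markers reached 178 CPM in 1 control library and 265 CPM in 1 TL-3d library. The part of these cells in the values of the mucin and goblet cell genes was not tested.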

How the data were processed

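RNA of 12 conjunctiva samples was sequenced from stranded mRNA libraries. Paired-end reads were mapped by the authors to the rabbit genome build OryCun2.0 with STAR (2.6.0c per the submitters' processing notes), who made values per gene and transcript with GeneData Profiler Genome. Whether strand was used, and how reads with several placements were shared, is not given in the sources used here. The deposited estimated counts had no scaling for library size, and 23.4% of gene and 55.4% of transcript values were not whole. The deposited FPKM values were divided by length and depth by the authors, and were used here only to compare levels between genes.

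Estimated counts were rounded. Of 20566 genes and 38710 transcripts, 14835 and 26082 passed filterByExpr of edgeR (at least 10 counts, with a total of at least 15). They were TMM-normalized and fitted together for all 12 libraries without covariates (edgeR 4.0.16, R 4.3.3, quasi-likelihood test, prior count 0.125). P-values were adjusted by Benjamini-Hochberg over all genes tested (threshold 0.05). The SE is the log2 fold change over the root of F. Alternatives were DESeq2 1.42.0 size factors and Wald test, library size only, other filters, a robust fit, the replicate block, fits of the compared groups alone, and leaving out each library. Within-group pairs of libraries differed far beyond counting error (lowest squared difference per gene over its counting variance 80.9), so none was a copy. P-values set a difference between groups against a spread between samples that was estimated over all 12 libraries. Whether the samples of a group came from separate animals is not said for each.

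Members and gene lists were chosen with earlier results of these data known. Named genes are all members, the 3 most correlated genes of each (log2 CPM, prior count 2), and the 2 highest and 2 lowest of each list's called genes at each time against cont, while markers are given as sums. Floors cover counting error only (95% confidence, 3 counts), and reads carried no molecular identifiers. A RefSeq table of another assembly gave names by gene ID only, and no sequence is printed.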

Additional observations from a re-analysis of the deposited data

Results flagged for a closer look

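The change of MUC15 from cont differed between time points. Its log2 fold change against cont was -2.19 at 3 hours and -0.68 at 3 days, and the direct test of TL-3d against TL-3h gave 1.51 (adjusted p = 0.0207, edgeR). All 3 TL-3d libraries lay above all 3 TL-3h libraries, and the call was lost when TL-3h replicate 2, TL-3h replicate 3 or TL-3d replicate 1 was left out.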

How the results depend on the processing

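Over 40 log2 fold changes of the 8 members (5 comparisons), the alternatives other than leaving out a library gave 312 values, of which 298 kept direction and side of the threshold, 9 gained a call, 5 changed sign and 0 lost a call. Leaving out 1 library gave 480 values, of which 436 kept both, 5 lost a call, 9 gained one and 30 changed sign. The cause of these changes was not tested. With library size as the only scaling, the log2 fold changes at 3 hours turned to -0.33 for MUC1, -0.33 for MUC4, -0.25 for LOC103347164 and -0.22 for LOC100356613, and TL-3d against TL-3h to 0.34 for MUC1 and 0.28 for MUC4. DESeq2's Wald test called 4471 genes at 3 days (2608 in edgeR), 367 at 14 days (0) and 1850 between 3 and 14 days (332), and a fit of only the libraries compared called 15 in the last comparison. At 3 days, each of these alternatives called 1 member (0 in the main analysis). Between 3 hours and 3 days, where the main analysis called 1 member, DESeq2 size factors, library size only and the fit of the libraries compared called 2 each and DESeq2's Wald test 3. Whether the numbers of the replicates pair samples was not settled. Deviations of same-numbered libraries correlated between -0.15 and 0.48 over 18 pairs, 8 of them above 0.1. The best match in another group, picked among 3 libraries each time, had the same number in 18 of 36 cases. With the replicate number as a block, 6946 genes passed at 3 hours (6733 without), 2719 at 3 days (2608), 0 at 14 days (0), 5831 between 3 hours and 3 days (5537) and 288 between 3 and 14 days (332), the members called were 2, 0, 0, 1 and 0 as without it, and the log2 fold change of MUC1 at 3 days (-0.008) and those of LOC103347164 (-0.24) and LOC100356613 (-0.16) at 14 days changed sign.

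With 1 library left out in turn, the members called numbered 1 to 3 at 3 hours, 0 to 1 at 3 days, 0 to 3 between 3 hours and 3 days and 0 to 1 between 3 and 14 days, and all genes called 359 (without TL-3d replicate 2) to 3778 (without TL-14d replicate 1) at 3 days, 0 to 716 (without TL-14d replicate 1) at 14 days and 0 (without TL-3d replicate 2) to 584 (without TL-14d replicate 2) between 3 and 14 days. Log2 fold changes whose sign depended on 1 library ranged as follows. At 3 hours, SPDEF lay between -0.80 and 0.15, MUC1 between -0.10 and 0.44, MUC4 between -0.062 and 0.27, MUC5B between -4.92 and 0.59, LOC103347164 between -0.28 and 0.98 and LOC100356613 between -0.36 and 1.17. At 3 days, MUC1 lay between -0.21 and 0.40 and MUC4 between -0.37 and 0.19. At 14 days, SPDEF lay between -0.81 and 0.46, MUC1 between -0.80 and 0.075, AGR2 between -1.16 and 1.16, LOC103347164 between -0.94 and 0.87 and LOC100356613 between -2.03 and 1.29. From 3 hours to 3 days, MUC1 lay between -0.42 and 0.23, MUC4 between -0.52 and 0.036, MUC20 between -0.028 and 0.67 and LOC103347164 between -0.21 and 0.68. From 3 to 14 days, MUC15 lay between -0.37 and 0.17, MUC1 between -0.83 and 0.043, MUC20 between -0.051 and 0.65, LOC103345061 between -0.87 and 2.22, LOC103344954 between -1.12 and 2.31, LOC100352724 between -1.08 and 2.79, LOC103347164 between -1.34 and 0.12 and LOC100356613 between -2.70 and 0.13. Within a group of 3 libraries, the levels of SPDEF differed by up to 12.03-fold and those of AGR2 by up to 7.45-fold, which limits the precision of their values.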
